A study of Mus musculus with 391 samples.

Results

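Mrc1, Cd163, Msr1, Stab1, Lyve1, Clec4n, Clec7a, Clec12a, Cd209f and Dab2 are 10 of the 56941 genes of the count table. They were chosen by name as uptake and recognition genes of macrophages, with earlier results of these data known. All 10 were rows of the table, and each was followed cell by cell. The cells were released from vessel fragments of adult mouse brain, sorted into the wells of 4 plates and sequenced by Smart-seq2, a full-length method without molecular identifiers. The labels name 280 cells microglia and 111 cells endothelial, with no animal, strain, sex, age or treatment beyond adult brain, so each class counts as 1 sample; cells are not replicates of a class, and nothing below is tested. Plates A and B held 133 and 147 microglia-class cells beside 7 and 10 endothelial cells; plates C and D held 50 and 44 endothelial cells only.

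Scavenger receptors bind modified lipoproteins, haemoglobin complexes, cell debris and other polyanionic cargo and carry it into endosomes. C-type lectin receptors recognise sugars of microbes and of the body's own glycoproteins; some of them signal to the nucleus through Syk and Card9, and others dampen such signals. In the brain these genes are best known from macrophages of the meninges, the choroid plexus and the perivascular space, which differ from the microglia of the parenchyma, and some of them are also known from sinusoidal and lymphatic endothelium.

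The 280 microglia-class cells held 47508014 gene reads, with 39876, 146506 and 504875 reads in the lowest, median and highest cell. The 111 endothelial cells held 21361227 gene reads, with 83954, 174345 and 602175 reads in the lowest, median and highest cell. Levels are given as CPM, the reads of a gene scaled by all gene reads of the cell or of all pooled cells of a class. A cell is said to carry a gene at 10 or more of its reads. Intervals are exact at 95% and cover counting error only, since reads without molecular identifiers are not independent molecules. The class labels were checked with marker lists: by a 4-fold limit, 15 of 16 microglia markers were higher in the microglia class, Adgrg1 being the exception, and 13 of 13 endothelial markers were higher in endothelial cells. In each class 1 cell carried 3 or more markers of the other class.

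The start regions of 5 of the genes are shown, which are those that held the hexamer marked below. Those of Cd163 and Cd209f lacked it and are not printed. In the cell-by-cell correlations below, Mrc1, Stab1 and Dab2 had the highest values with each other. Those of Clec12a and Clec7a with them lay between -0.13 and 0.16. Each region is the 250 bases before an annotated start, 5′ to 3′ on the gene's own strand, from RefSeq on build GRCm38.p6. Capitals mark the hexamer GAGGAA or its reverse complement TTCCTC, the core letters of sites for PU.1, a factor of the macrophage lineage.

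Mrc1, chr2:14229164-14229413, plus strand: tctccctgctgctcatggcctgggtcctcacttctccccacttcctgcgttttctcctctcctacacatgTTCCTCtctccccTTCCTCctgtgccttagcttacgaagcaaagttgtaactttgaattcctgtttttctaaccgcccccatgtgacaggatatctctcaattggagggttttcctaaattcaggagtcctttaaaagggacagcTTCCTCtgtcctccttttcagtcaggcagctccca

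Stab1, chr14:31168642-31168891, minus strand: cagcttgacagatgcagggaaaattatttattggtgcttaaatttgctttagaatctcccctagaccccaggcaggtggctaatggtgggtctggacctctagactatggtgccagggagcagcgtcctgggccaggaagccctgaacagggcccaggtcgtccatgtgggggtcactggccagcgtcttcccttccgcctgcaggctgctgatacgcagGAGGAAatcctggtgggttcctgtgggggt

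Dab2, chr15:6386498-6386747, plus strand: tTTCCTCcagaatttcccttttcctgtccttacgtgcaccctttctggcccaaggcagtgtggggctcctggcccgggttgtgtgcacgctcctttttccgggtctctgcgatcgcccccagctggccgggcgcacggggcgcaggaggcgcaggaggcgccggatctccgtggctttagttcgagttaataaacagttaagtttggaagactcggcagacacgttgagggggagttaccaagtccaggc

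Clec12a, chr6:129349994-129350243, plus strand: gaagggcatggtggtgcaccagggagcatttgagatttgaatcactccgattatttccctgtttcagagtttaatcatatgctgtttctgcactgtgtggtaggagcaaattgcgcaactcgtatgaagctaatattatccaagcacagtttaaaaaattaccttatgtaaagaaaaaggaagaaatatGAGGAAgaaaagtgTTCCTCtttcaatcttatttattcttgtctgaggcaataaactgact

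Clec7a, chr6:129472780-129473029, minus strand: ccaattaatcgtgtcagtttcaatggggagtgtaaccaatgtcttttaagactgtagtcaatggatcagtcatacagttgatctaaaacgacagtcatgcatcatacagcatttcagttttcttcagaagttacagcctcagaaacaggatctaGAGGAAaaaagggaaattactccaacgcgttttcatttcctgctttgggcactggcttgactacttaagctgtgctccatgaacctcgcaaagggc

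Promoter entries were found for 7 of the 10 genes, and Dab2 and Clec7a had a pair of annotated starts each, of which 1 is printed. The hexamer was present on either strand before the start of 5 of these 7 genes, namely Mrc1, Stab1, Dab2, Clec12a and Clec7a, and in 23.4% of 32536 promoters of the same length. The Mrc1 region held it 3 times, beginning 180, 167 and 35 bases before the start. A MAF half-site, TGCTGA, was found before the start of Stab1, before the Dab2 start that is not printed and in 16.1% of all promoters, a RUNX core, TGTGGT, before that of Clec12a and in 14.0% of all promoters, and a TATA box, TATAAA, before that of Cd209f and in 12.3% of all promoters. These motifs were searched on both strands and did not overlap the capitals. A match is a description of letters and not of a bound factor. Clec12a and Clec7a lie on chromosome 6 within a run of lectin genes that holds Clec12b, Clec1a and the lectin-like scavenger receptor gene Olr1, and Clec4n lies on the same chromosome between Clec4b2 and Clec4d.

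All 10 genes were read more in the microglia class than in endothelial cells. They are macrophage genes chosen with earlier results of these data known, so the counts below describe them and test nothing. On the log2 scale with 1 CPM added, 10 of 10 passed a 4-fold limit towards the microglia class, against 19.9% of 14989 genes with 1 CPM or more in either class; 11.7% of these genes passed the limit towards endothelial cells. Their median log2 ratio was 7.34, beside 0.36 over all genes tested. The 10 genes fell into 8 with hardly a read in endothelial cells and 2, Stab1 and Dab2, with a level there of 21.6% and 20.4% of the microglia class. Within plate A the count was 10 of 10, where 46.5% of 14160 genes were called in that direction, and within plate B it was 9 of 10, where 48.4% of 13649 genes were called.

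**Figure D1:**
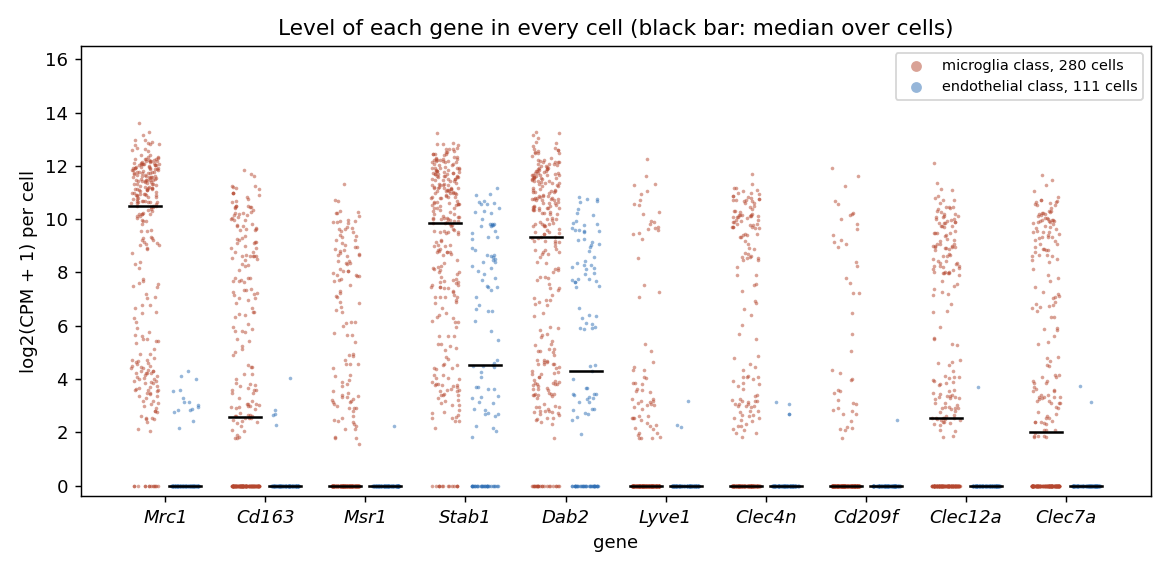
Each point is 1 cell, with the gene on the horizontal axis and log2(CPM + 1) on the vertical axis; for each gene the 280 microglia-class cells stand left of the 111 endothelial cells, and black bars are medians over cells. Mrc1, Stab1 and Dab2 have medians of 1442, 918 and 639 CPM in the microglia class, the other 7 genes have medians of 0 to 4.99 CPM there, and in endothelial cells Stab1 and Dab2 alone reach the upper range.

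Mrc1 encodes the mannose receptor CD206, an endocytic lectin for mannosylated glycoproteins and collagen fragments. It had 0, 1442 and 12414 CPM in the lowest, median and highest of the 280 microglia-class cells, against 0, 0 and 18.6 CPM in the 111 endothelial cells. The classes overlapped only at the low end: 188 microglia-class cells carried it and no endothelial cell did. Pooled, it stood at 1837 CPM in the microglia class against 1.08 CPM in endothelial cells, a 1706-fold ratio with an interval of 1137 to 2691. Read per kilobase of exon, it was the most abundant of the 10 in the microglia class at 288 CPM per kb.

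Cd163 encodes the receptor for haptoglobin-haemoglobin complexes, and Msr1 the class A scavenger receptor for modified low-density lipoprotein. Cd163 had 0, 4.99 and 3652 CPM in the lowest, median and highest microglia-class cell and at most 15.5 CPM in an endothelial cell. It was carried by 93 of 280 microglia-class cells and 0 of 111 endothelial cells, so that most cells of its own class had little of it. Msr1 had 0, 0 and 2532 CPM in the microglia class and at most 3.68 CPM in an endothelial cell, and was carried by 64 microglia-class cells. Pooled, Cd163 reached 277 CPM in the microglia class against 0.281 CPM in endothelial cells, from 6 reads, and Msr1 reached 122 CPM in the microglia class against 0.0468 CPM in endothelial cells, from 1 read. Msr1 differed between the plates of the microglia class, with 169 CPM in plate A and 96.0 CPM in plate B.

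Stab1 encodes stabilin-1, a large receptor that takes up modified lipoproteins and the matrix protein SPARC, and Dab2 encodes not a receptor but a clathrin adaptor that gathers cargo-bound receptors into coated pits. Stab1 had 0, 918 and 9711 CPM in the lowest, median and highest microglia-class cell, against 0, 22.1 and 2301 CPM in endothelial cells. Dab2 had 0, 639 and 9771 CPM in the microglia class, against 0, 18.6 and 1812 CPM in endothelial cells. For both genes the ranges of the classes overlapped widely, and the highest endothelial cells stood above the microglia-class median. The pooled ratio was 4.63 (4.52 to 4.74) for Stab1, from 1552 CPM in the microglia class against 335 CPM in endothelial cells, and 4.90 (4.77 to 5.04) for Dab2, from 1326 CPM in the microglia class against 270 CPM in endothelial cells.

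Lyve1 encodes a hyaluronan receptor first known from lymphatic endothelium, and Cd209f is one of the mouse relatives of the lectin DC-SIGN. Both were rare, with high levels in few cells. Lyve1 was carried by 24 of 280 microglia-class cells, in which it had 151, 963 and 4898 CPM in the lowest, median and highest cell, while its median over all 280 cells was 0. Cd209f was carried by 23 of 280 microglia-class cells, with 88.5, 680 and 3835 CPM in them. The tenth of microglia-class cells with the highest level held 99.3% of all Lyve1 reads and 99.5% of all Cd209f reads of the class, against 42.9% for Mrc1. No endothelial cell carried either gene, and its pooled reads there were 3 for Lyve1 and 1 for Cd209f. Cd209f lies beside Cd209c and Cd209g, and since the handling of reads that map to several genes is not given, its counts are uncertain to the extent that these copies share reads.

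Clec7a encodes Dectin-1, a receptor for fungal beta-glucan, Clec4n encodes Dectin-2, which binds fungal mannans and signals through the Fc receptor gamma chain, and Clec12a encodes an inhibitory lectin that senses uric acid crystals of dead cells. They were carried by 88, 84 and 94 of 280 microglia-class cells and by 0 of 111 endothelial cells, in that order of genes. Among the cells that carried them, Clec7a had 57.1, 728 and 3265 CPM, Clec4n had 64.1, 980 and 3332 CPM and Clec12a had 60.3, 536 and 4415 CPM in the lowest, median and highest cell. Each of these lectins was thus abundant in some cells and at or near 0 in most. Pooled levels were 301, 297 and 255 CPM in the microglia class, against 0.140, 0.187 and 0.0468 CPM in endothelial cells.

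Per kilobase of exon, and pooled over the microglia class, Mrc1 was followed by Clec4n at 209, Dab2 at 181, Stab1 at 151, Clec7a at 114, Cd163 at 50.7, Lyve1 at 47.1, Clec12a at 46.1, Cd209f at 34.7 and Msr1 at 19.2 CPM per kb. The counting intervals of Lyve1 (45.9 to 48.2) and Clec12a (45.3 to 46.9) overlapped. Clec4n and Dab2 were close in plate A, at 244 and 230 CPM per kb, and further apart in plate B, at 190 and 154 CPM per kb. Stab1 and Dab2 were closer to each other in plate B, at 145 and 154 CPM per kb, than in plate A, at 162 and 230 CPM per kb. Exon lengths came from GENCODE M21, an annotation of an earlier build than that of the counts.

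Within the microglia class, Mrc1, Stab1 and Dab2 were read together. Of 280 cells 142, or 50.7% (44.7 to 56.7%), carried all 3 genes, 52 carried exactly 2, 48 carried exactly 1 and 38 carried none. Dab2 was carried by 76.8% of the cells with Stab1 and by 32.9% of the cells without it, and Mrc1 by 76.8% of the cells with Stab1 and by 39.7% of those without it. The Spearman correlations of log2(CPM + 1) over the 280 cells were 0.63 for Stab1 with Dab2, 0.61 for Mrc1 with Stab1 and 0.60 for Mrc1 with Dab2, the highest among the 45 pairs. These correlations describe cells that share 2 plates and differ in depth; with reads per cell held constant by ranks they were 0.62, 0.61 and 0.60. All 3 genes were carried by 60.2% of the plate A cells and by 42.2% of the plate B cells, while reads per microglia-class cell had medians of 122714 in plate A and 199821 in plate B; the part of the plate in that difference was not tested.

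**Figure D2:**
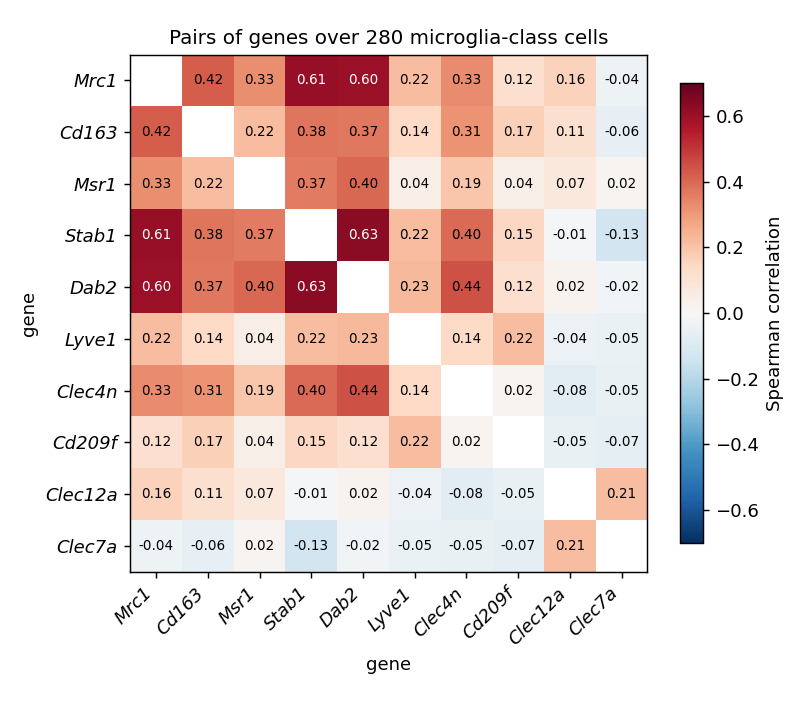
Both axes list the 10 genes, and each square gives the Spearman correlation of log2(CPM + 1) of a pair over 280 microglia-class cells, in red above 0 and in blue below. Mrc1, Stab1 and Dab2 hold the highest values at 0.60 to 0.63, and the columns of Clec12a and Clec7a lie between -0.13 and 0.16 with every gene except each other.

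Cd163, Msr1 and Clec4n were found mostly in cells with that core. At least 1 of Mrc1, Stab1 and Dab2 was carried by 242 of all 280 cells, or 86.4%. It was carried by 64 of 64 cells with Msr1, and the same held for 90 of 93 cells with Cd163 and 83 of 84 cells with Clec4n. Their correlations with the core genes lay between 0.33 (Mrc1 with Msr1) and 0.44 (Dab2 with Clec4n). Cd163 and Clec4n were carried together by 50 cells, with a correlation of 0.31. In all, 13 of 45 pairs reached 0.3, every one of them among Mrc1, Cd163, Msr1, Stab1, Dab2 and Clec4n, and the median over the 45 pairs was 0.15.

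Lyve1 and Cd209f marked small sets of cells that overlapped in part. Of all 280 cells, 67.1% carried Mrc1, 65.4% Dab2 and 73.9% Stab1. All 24 cells with Lyve1 carried Mrc1, 23 carried Dab2 and 22 carried Stab1. Of the 23 cells with Cd209f, 21 carried Mrc1, 21 carried Dab2 and 22 carried Stab1. Both genes were carried by 8 cells, that is by 33.3% of the Lyve1 cells and 34.8% of the Cd209f cells, and at least one of them by 39 cells. Their correlation with each other was 0.22.

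Clec7a and Clec12a followed another pattern. Of 11 pairs with a correlation below 0, the lowest was Stab1 with Clec7a at -0.13, and Clec12a or Clec7a was a member of all 11. Clec7a was carried by 26.6% of the cells with Stab1 and by 45.2% of the cells without it. For Mrc1 these shares went the other way, at 36.2% with it and 21.7% without it, and for Dab2 they were 32.2% and 29.9%. Clec12a was carried by 43.1% of the cells with Mrc1 and 14.1% of those without it. For Dab2 its shares were 40.4% and 20.6%, and for Stab1 they were 33.3% and 34.2%. The correlation of Clec12a with Clec7a was 0.21, and 46 cells carried both, 48 Clec12a without Clec7a and 42 Clec7a without Clec12a. This correlation was 0.28 in plate A and 0.12 in plate B, where 30 and 16 cells carried both. Cells with either lectin carried Mrc1, Stab1 or Dab2 about as often as all cells did (86.4%), at 86.4% for Clec7a (76 of 88) and 90.4% for Clec12a (85 of 94). Dectin-1 and Dectin-2 messages were close to unrelated: Clec7a was carried by 22.6% of the cells with Clec4n and by 35.2% of the cells without it, 19 cells carried both, and the correlation was -0.05.

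No cell carried all 10 genes. The number carried per cell ran from 0 in 20 cells to 8 in 10 cells, and the most frequent number was 5, in 51 cells. In plate A 7 of 133 cells and in plate B 13 of 147 cells carried none.

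The genes most alike to each member over the 280 cells were sought among 7272 genes read in at least 10% of them. Pf4, a chemokine of platelets and of macrophages at brain borders, was among the 3 most alike genes of Mrc1 (0.61), Cd163 (0.41), Stab1 (0.62), Dab2 (0.63), Clec4n (0.46) and Msr1 (0.33). Ms4a7, another gene of macrophages at brain borders, stood first for Mrc1 at 0.64, Cbr2 first for Cd163 at 0.43, and Pla2g7, a lipoprotein-associated phospholipase, first for Clec4n at 0.51. Hpgd, which inactivates prostaglandins, stood first for Msr1 at 0.36. For Clec12a the most alike genes were Cybb, the catalytic subunit of the phagocyte oxidase, at 0.36 and H2-Ab1, a class II antigen-presentation gene, at 0.36. For Clec7a they were Cd52 at 0.32, Bcl2a1d at 0.31 and Cd74, the class II invariant chain, at 0.30. The first-ranked genes of Lyve1 (Bnip1, 0.29) and Cd209f (Clec10a, 0.24) were only weakly alike.

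The microglia-class cells were grouped by their other genes, with the 10 members kept out. Cluster 1, with 130 cells (65 in plate A and 65 in plate B), had 9 of 12 markers of border-associated macrophages read in 50% or more of its cells and a median log2 ratio of 2.58 for that list over the other cells, and is called border-associated-macrophage-like; its leading genes included Cd209f and Lyve1 themselves. Cluster 3, with 50 cells, had 16 of 16 microglia markers read in 50% or more of its cells and a median log2 ratio of 1.86, and is called microglia-like. Clusters 1, 2 and 4 each had 13 of 16 microglia markers read in 50% or more of their cells. Of the 12 markers of border-associated macrophages, 6, 5 and 6 were so read in clusters 2, 3 and 4. Their levels set cluster 2 apart from clusters 3 and 4. The list summed to 11941, 1594 and 1417 CPM in clusters 2, 3 and 4, against 19332 CPM in cluster 1. Its median log2 ratios over the other cells were -0.62, -6.32 and -5.60 in clusters 2, 3 and 4. Cluster 2, with 69 cells, and cluster 4, with 31 cells, were left unnamed; class II antigen-presentation markers had median log2 ratios of 1.63 and 1.96 in them. In cluster 4 the 10 dendritic cell markers summed to 4507 CPM, against 1143 CPM in the other cells, the 8 monocyte markers to 1136 CPM, against 185 CPM, and the 16 microglia markers to 2475 CPM, against 32966 CPM. The label microglia therefore covered cells of which the microglia-like cluster held 50 of 280. Cells with fewer reads were more frequent in cluster 1, whose median of 124570 reads per cell stood below 141113, 191150 and 211109 in clusters 2, 3 and 4, and several marker lists of other cell types had larger sums there, set against the remaining cells of the class: oligodendrocyte markers had 940 CPM against 397 CPM, choroid plexus epithelial markers 147 CPM against 2.36 CPM, mural markers 46.1 CPM against 12.8 CPM and neuron markers 28.7 CPM against 8.12 CPM. The part of depth and of these markers in the values below was not tested.

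Of the 10 genes, 8 were highest in cluster 1, Clec12a was highest in cluster 2, and Clec7a stood level in clusters 2 and 4. At a finer resolution of 1.0 cluster 1 came apart, and 8 genes were highest in one of its 2 pieces. In the piece with the highest median level of border-associated-macrophage markers, 4 genes were highest. Cluster 1 held 39.3% of all gene reads of the class. It held 99.1% of the class's Cd209f reads, 97.1% of its Lyve1 reads, 89.9% of its Clec4n reads, 82.6% of its Cd163 reads, 82.5% of its Dab2 reads, 78.5% of its Stab1 reads, 73.3% of its Msr1 reads and 72.8% of its Mrc1 reads, 36.6% of its Clec12a reads, near its share of all reads, and 20.1% of its Clec7a reads. Mrc1 stood at 3398, 1608, 75.2 and 639 CPM in clusters 1, 2, 3 and 4, and Dab2 at 2780, 826, 26.9 and 191 CPM. Both genes were thus lowest in the microglia-like cluster, where 3 of 50 cells carried Mrc1 and 3 of 50 carried Dab2. The order of clusters for Mrc1 was the same in plate A (3067, 1430, 67.7 and 656 CPM) and in plate B (3596, 1757, 78.8 and 635 CPM).

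**Figure D3:**
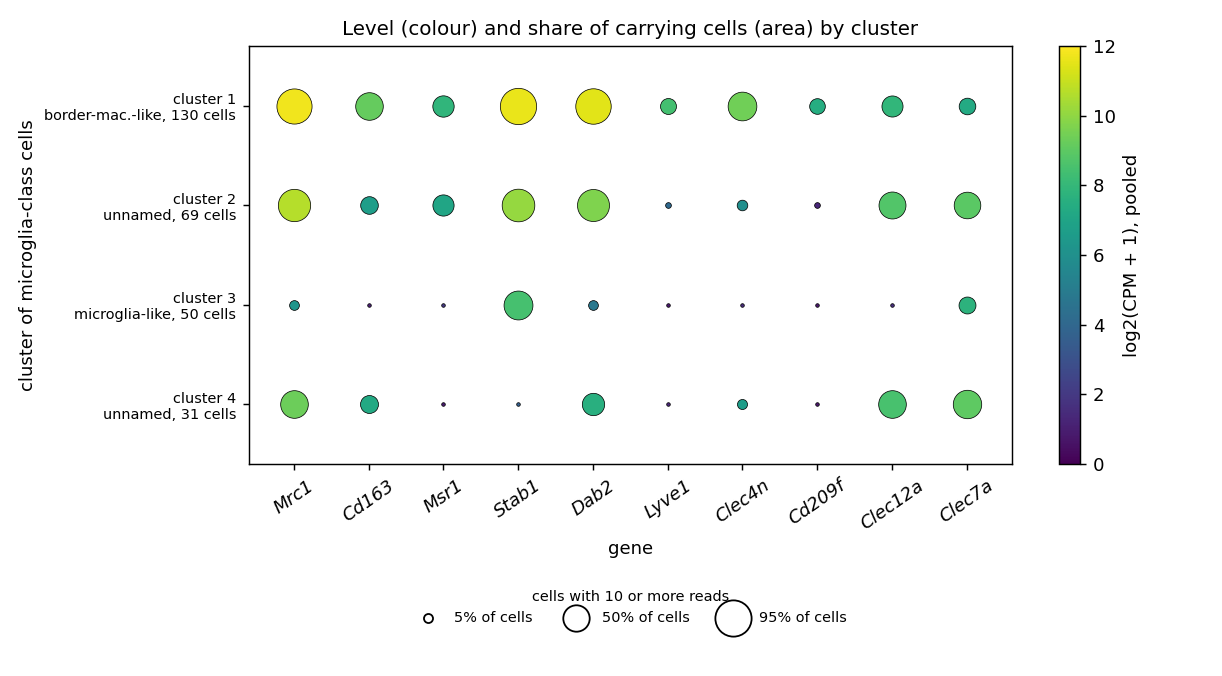
The horizontal axis lists the 10 genes and the vertical axis the 4 clusters of microglia-class cells made without them; circle area is the percentage of cells with 10 or more reads, and colour is log2(CPM + 1) of the pooled reads. Cluster 1 holds large circles for Mrc1, Stab1 and Dab2 at 89.2%, 95.4% and 90.8% of cells, cluster 3 holds a large circle for Stab1 alone at 60.0%, and clusters 2 and 4 hold the largest circles for Clec12a and Clec7a.

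Stab1 broke with Mrc1 and Dab2 in the microglia-like cluster and in cluster 4, but not in cluster 2. Of the 69 cells of cluster 2, 53 carried Stab1, 52 carried Mrc1 and 51 carried Dab2. Stab1 was carried by 30 of 50 microglia-like cells, at 352 CPM pooled and 124 CPM in the median cell. In cluster 4 Stab1 was carried by 0 of 31 cells, at 11.1 CPM pooled. In the same cluster 4, 17 cells carried Mrc1 and 11 carried Dab2. Of the 48 microglia-class cells that carried Stab1 without Mrc1, 28 were in the microglia-like cluster and 0 in cluster 4. Of the 29 cells that carried Mrc1 without Stab1, 17 were in cluster 4 and 1 in the microglia-like cluster. Stab1 in the microglia-like cluster stood at 400 CPM in plate A and 329 CPM in plate B.

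In the microglia-like cluster Mrc1 and Dab2 had medians of 10.9 and 10.4 CPM, with 3 of 50 cells carrying each. Clec7a was carried there by more cells than any of the 10 genes but Stab1. It stood at 154, 488, 206 and 511 CPM in clusters 1, 2, 3 and 4. The intervals of clusters 2 (476 to 502) and 4 (495 to 528) overlapped, and their order turned round in plate A, with 630 CPM in cluster 2 and 541 CPM in cluster 4. In the microglia-like cluster it stood at 87.9 CPM in plate A and 263 CPM in plate B, and 10 of 50 microglia-like cells carried it, with a highest cell at 1815 CPM and a median of 0. Clec12a stood at 237, 432, 2.10 and 369 CPM in clusters 1, 2, 3 and 4 and was carried by 0 of 50 microglia-like cells, so the 2 lectins parted there. Msr1 was read in cluster 1 at 227 CPM and in cluster 2 at 134 CPM, and fell to 2.80 CPM in cluster 3 and 0.80 CPM in cluster 4. Cd163 and Clec4n also had reads in cluster 4, at 149 and 98.0 CPM, from 7 and 2 carrying cells of 31.

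In endothelial cells only Stab1 and Dab2 of the 10 genes were carried by any cell. Stab1 was carried by 51 of 111 cells, or 45.9% (36.4 to 55.7%), and Dab2 by 52 of 111, or 46.8% (37.3 to 56.6%). The other 8 genes were carried by 0 of 111 cells, for which the exact interval runs up to 3.27%, and 1 to 23 reads of each were found in all endothelial cells together. In the cells that carried them, Stab1 had 71.4, 476 and 2301 CPM and Dab2 had 57.6, 363 and 1812 CPM in the lowest, median and highest cell. After random thinning of every cell to 71000 reads, a depth that 34 microglia-class cells and 0 endothelial cells did not reach, Stab1 was carried by 69.5% of microglia-class cells and 41.4% of endothelial cells, and Dab2 by 61.0% of microglia-class cells and 39.6% of endothelial cells.

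The endothelial level of 8 genes was 0.0184 to 0.102% of the microglia-class level. The median over the 16 microglia markers was 0.151%, with 0.377% for Csf1r, the receptor that macrophages need to survive, and 0.129% for C1qa. Stab1 and Dab2 stood at 21.6% and 20.4%. The 51 endothelial cells with Stab1 had no cell with 10 reads of any of 9 macrophage genes (Csf1r, Cx3cr1, C1qa, C1qb, C1qc, Fcrls, P2ry12, Tmem119 and Mrc1, a list drawn up after values had been seen), and these genes summed to 19.1 CPM in them, against 63.7 CPM in the 60 cells without Stab1. In the 52 endothelial cells with Dab2 the sum was 58.4 CPM, against 22.5 CPM in the 59 cells without it. A single cell, which carried Dab2 and not Stab1, held 375 of these reads; without it the sum was 29.0 CPM in the cells without Stab1 and 25.4 CPM in the cells with Dab2, close to the 22.5 CPM of the cells without Dab2.

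**Figure D4:**
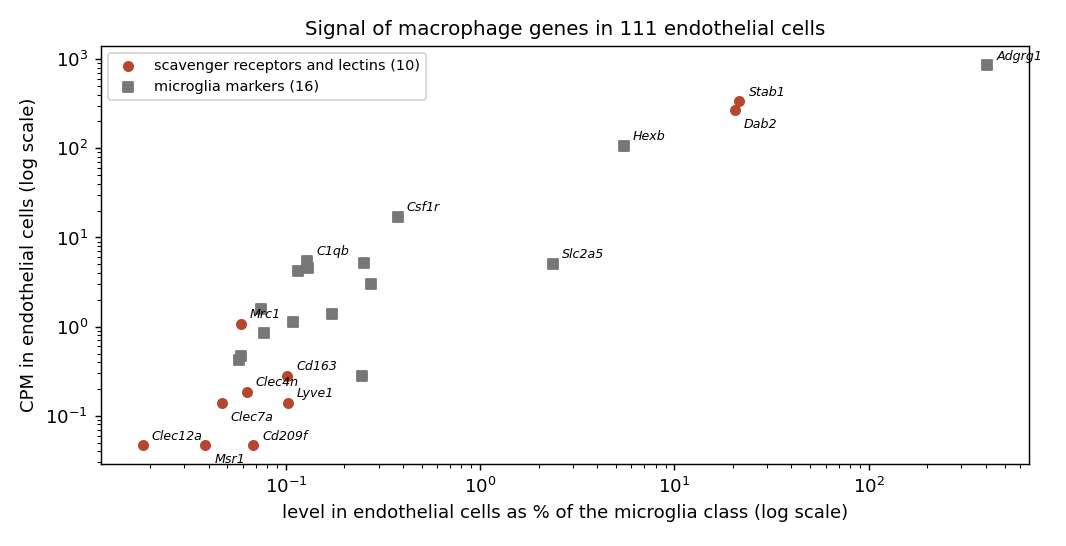
Each point is a gene, with its level in endothelial cells as a percentage of the microglia-class level on the horizontal axis and its pooled CPM in endothelial cells on the vertical axis, both on log scales; circles are the 10 scavenger receptors and lectins and squares are 16 microglia markers. Stab1 and Dab2 lie at 21.6% and 20.4%, and the other 8 circles lie at or below 0.102%, among or below most squares.

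In endothelial cells Stab1 and Dab2 showed no tendency to be read together. Of 111 endothelial cells 21 carried both, 30 Stab1 without Dab2, 31 Dab2 without Stab1 and 29 neither, so that Dab2 was carried by 41.2% of the cells with Stab1 and by 51.7% of those without it; 56 cells had at least 1 read of both. The Spearman correlation was -0.05, beside 0.63 in the microglia class. Within plates C and D, which hold 50 and 44 of the cells, it was 0.00 and -0.13. Pooled levels differed among plates: Stab1 had 147, 10.8, 351 and 418 CPM in the endothelial cells of plates A, B, C and D, and Dab2 had 393, 463, 319 and 158 CPM. The plates with the least Stab1 were those with the most Dab2, but plates A and B hold 7 and 10 endothelial cells. The ratio of microglia class over endothelial cells was 11.4 for Stab1 and 4.29 for Dab2 within plate A, and 137 for Stab1 and 2.44 for Dab2 within plate B. Dab2 fell short of 4-fold within plate B, and also over all cells without plate D, where its log2 ratio was 1.92.

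**Figure D5:**
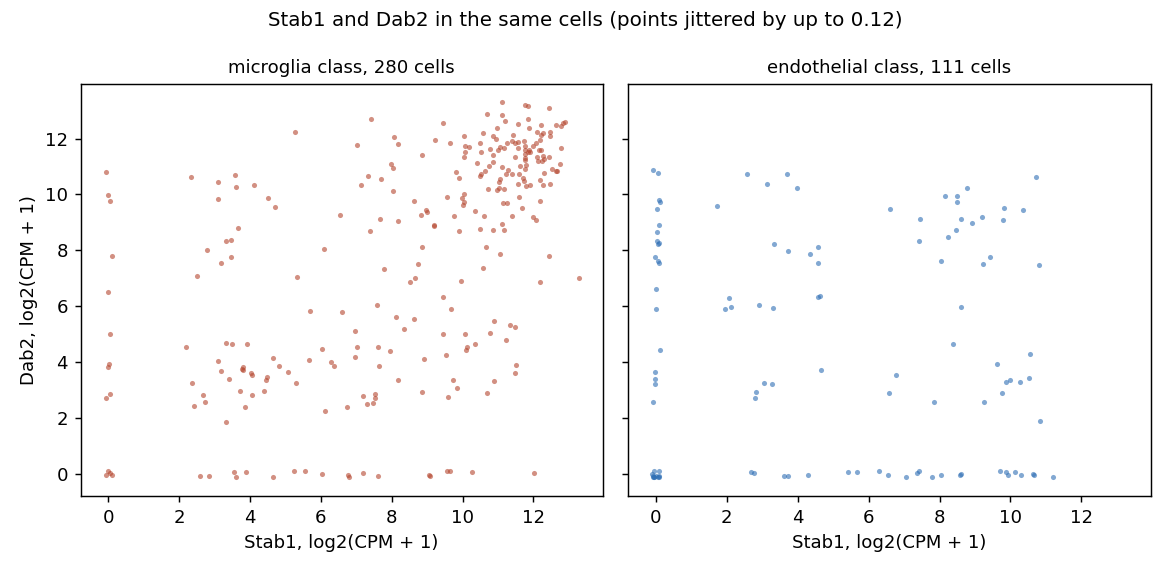
Each point is 1 cell, with log2(CPM + 1) of Stab1 on the horizontal axis and of Dab2 on the vertical axis, for the 280 microglia-class cells on the left and the 111 endothelial cells on the right. In the microglia class the 159 cells that carry both genes form a dense group at the upper right, and in endothelial cells the points spread over both axes, with 21 cells that carry both.

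Stab1 is known from sinusoidal endothelium and from lymphatic endothelium, so the defining genes of both were read. Stab2, its sinusoidal partner, had 0.463 CPM in the microglia class against 0 reads in endothelial cells, and Lyve1 had 3 reads there. Of the lymphatic markers Prox1, Ccl21a, Reln and Sema3d had 0 reads in endothelial cells and Pdpn had 0.0468 CPM, while Flt4 had 0.189 CPM in the microglia class against 553 CPM in endothelial cells, Itga9 15.5 CPM against 82.1 CPM and Mmrn1 0 against 8.10 CPM. Of 4 lymphatic markers measured 3 passed the 4-fold limit towards endothelial cells, beside 11.7% of all genes. The list of 8 summed to 18.0 CPM in the microglia class against 643 CPM in endothelial cells, of which Flt4 made up 553 CPM. The 8 sinusoidal markers summed to 2324 CPM in the microglia class against 763 CPM in endothelial cells, of which Ctsl, a protease of many cell types, made up 759 CPM. The part of these markers in the Stab1 signal was not tested. The genes most alike to Stab1 over the 111 endothelial cells were Thrap3 at 0.32, Tnfrsf1a at 0.31 and Abcc10 at 0.30. Those most alike to Dab2 were Mill2 at 0.46, Ciart at 0.37 and Unc45b at 0.37. These values are the highest among 7140 genes compared, and how high unrelated genes would reach among so many was not tested.

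Other genes of these families were not uniformly of the microglia class. Of 13 other scavenger receptors measured, 8 passed the 4-fold limit towards the microglia class and 2 towards endothelial cells, and the median log2 ratio was 2.66, beside 0.36 over all genes tested. The most abundant in the microglia class were Cd68, with 1556 CPM in the microglia class against 2.39 CPM in endothelial cells, Cxcl16, with 473 CPM against 44.6 CPM, Axl, with 422 CPM against 0.749 CPM, and Cd36, with 347 CPM against 1.03 CPM in endothelial cells. Of 28 other C-type lectin receptors 17 passed towards the microglia class and 5 towards endothelial cells, and the median was 2.93, where all genes passed at 19.9% and 11.7%. Cd209a had 568 CPM in the microglia class against 0.140 CPM in endothelial cells, and Mgl2, Clec4a1 and Clec4a3 had 508, 420 and 348 CPM in the microglia class. At the other extreme stood Clec14a, a lectin of endothelium, with 1.03 CPM in the microglia class against 2060 CPM in endothelial cells, a log2 ratio of -9.99.

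The signalling genes behind the lectins leaned to the microglia class. Of 18, 12 passed the limit towards the microglia class and 0 towards endothelial cells, beside 19.9% and 11.7% of all genes. The median log2 ratio was 4.14, beside 0.36 over all genes tested. The adaptors Tyrobp and Fcer1g, of which Fcer1g is the partner chain of Dectin-2, had 1384 and 1281 CPM in the microglia class and 7.16 and 1.87 CPM in endothelial cells, and were carried by 273 and 271 of 280 microglia-class cells, many more than carried Clec4n or Clec7a. The phosphatase genes Ptpn6 and Inpp5d, which act below inhibitory receptors, had log2 ratios of 8.23 and 2.73. Syk and Card9 had 142 and 88.4 CPM in the microglia class, against 0.234 and 0 CPM in endothelial cells.

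Of 16 measured genes of the clathrin machinery that Dab2 joins, 3 passed the limit towards each class and 10 lay between, near the shares of 19.9% and 11.7% of all genes, and the median log2 ratio was 0.11. Clta, Cltc, Dnm2 and Picalm had log2 ratios of 2.22, 1.66, -0.59 and 2.48, and Myo6, a motor that binds Dab2, had 9.85 CPM in the microglia class against 226 CPM in endothelial cells. Of the genes that handle what Cd163 takes up, 5 of 10 for haemoglobin and haem handling passed towards the microglia class and 0 towards endothelial cells, and the median was 1.87. That list holds Hpgd, the prostaglandin gene named above, which had its highest ratio at 9.42; without it 4 of 9 passed and the median was 1.71. Hmox1, which breaks down haem, had 398 CPM in the microglia class against 16.1 CPM in endothelial cells, and Blvrb and the ferritin gene Fth1 had log2 ratios of 2.02 and 1.53. Around Lyve1, 4 of 6 measured genes of hyaluronan handling passed towards endothelial cells and 1 towards the microglia class, beside 11.7% and 19.9% of all genes, and the median was -3.43. Hyal2, a hyaluronidase, had 19.6 CPM in the microglia class against 282 CPM in endothelial cells, and Cemip2 and Layn had log2 ratios of -4.17 and -4.31, while Cd44, the other main hyaluronan receptor, had 164 CPM in the microglia class against 0.0468 CPM in endothelial cells.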

How the data were processed

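Smart-seq2 libraries of 280 cells labelled microglia and 111 labelled endothelial were used. The authors deposited raw counts, whole numbers of reads for each gene, per the file headers, and a cell table with other values, a class code per cell, per the file headers. The submitters' processing notes name GRCm39, SAMtools 1.16.1, featureCounts and Subread 1.4.6-p5. For the aligner, annotation, strand setting and multiply mapped reads, the method is not given in the sources used here, so overlapping, antisense and near-identical genes are uncertain. Columns were matched to a class through the cell table, and plates were read from the start of the column names. No count column was identical to another, no cell was filtered out and no doublet caller was run; cells with markers of the other class were counted.

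From the counts, CPM, exact Poisson and Clopper-Pearson intervals and exact conditional ratio intervals were computed (Python 3.11.15, scipy 1.17.1). Genes with 1 CPM in either class were measured and those 4-fold apart with a pseudocount of 1 CPM were called; the pseudocount understates ratios of low genes. A class with 0 reads has a floor of 3 reads. Microglia-class cells were clustered with scanpy 1.11.5 (Leiden, resolution 0.5, 2000 variable genes, 20 components, 15 neighbours, members kept out). Ratio and correlation code was tested on simulated data. edgeR 4.0.16 gave TMM factors only. The other alternatives were other scalings, pseudocounts, thresholds, plates, thinning and clusterings. The members and lists were chosen with earlier results of these data known. The named genes were the 10 members, the 3 genes most alike to each, the 4 most abundant and the most extreme of each pathway list, and leading genes of marker lists; Syk, Card9 and others given for their role were chosen after values were seen.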

Additional observations from a re-analysis of the deposited data

How the results depend on the processing

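Of the 10 genes, 8 to 10 were called higher in the microglia class under every scaling, pseudocount, threshold and plate setting run. The count was 8 at 8-fold, without Stab1 and Dab2, and 9 without Dab2 within plate B and when plate D was left out, where the log2 ratio of Dab2 was 1.28 and 1.92. The median log2 ratio of all genes was 0.36, and 1.73 and 1.87 within plates A and B. At 1 read in place of 10, Stab1 was read in 72.1% and Dab2 in 68.5% of endothelial cells, Mrc1 joined them as a gene found in at least 10% of these cells (14.4%), and all of Mrc1, Stab1 and Dab2 in 85.7% of microglia-class cells. Without plate D, Dab2 was carried by 58.2% of endothelial cells. The 3 genes were carried together by 60.2% of cells within plate A and 42.2% within plate B. Between 11 and 13 pairs reached a correlation of 0.3. At clustering resolution 1.0, 4 genes were highest in the border-associated-macrophage-like cluster, since cluster 1 was divided, mainly into 101 and 27 cells, and 8 genes were highest in one of the 2 pieces. By mean over cells and at resolution 1.0 Clec7a was highest in cluster 2, at 451 and 517 CPM, and not in cluster 4, at 443 and 511 CPM. No log2 ratio changed sign. No paired analysis was possible because the labels give no replicate numbers; values within plates A and B, which hold both classes, stand in its place. Leaving out the endothelial cell richest in macrophage genes was chosen after seeing the data. With 1 sample a class, spread between animals is unknown.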
